A study of Mus musculus with 9 samples.

Results

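The acute phase proteins studied here were 10 genes of mouse liver, Saa1, Saa2, Saa3, Saa4, Orm1, Orm2, Hp, Hpx, Lcn2 and Itih4. They were chosen by symbol, and all 10 were found among the 24411 genes of the count table. Poly(A) RNA was sequenced from 9 livers of C57BL/6 mice at 3 months of age, 3 in each of 3 genotypes. All 9 mice carried floxed Atg7 on both copies. The group called cont. had no Cre recombinase. Atg7-KO mice also carried Alb-Cre, in which the albumin promoter drives Cre and so deletes Atg7 in hepatocytes, the cells that also make most acute phase proteins. The group Atg7-KO;p62S351A, written S351A from here on, carried Alb-Cre and, in addition, p62 with a serine replaced by alanine (S351A) on both copies, a change that weakens the binding of p62 to KEAP1. The genotype entries of S351A replicates 2 and 3 name other positions in p62 than their titles do; the titles were followed, and a count table cannot show the allele. Only whole liver was measured, so fewer hepatocytes and less RNA per hepatocyte cannot be told apart in any result given here.

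ATG7 is needed for autophagy, and its loss in hepatocytes lets p62 bodies build up. Acute phase proteins are plasma proteins whose output by the liver changes during infection and injury. Interleukin-6 acting through STAT3, and interleukin-1 acting through NF-kB and C/EBP factors, are the textbook inducers of positive acute phase genes, while the output of negative acute phase proteins such as albumin falls. SAA1 and SAA2 are the inducible serum amyloid A proteins carried on high density lipoprotein. SAA3 is made largely outside hepatocytes, and SAA4 is the constitutive form. ORM1 and ORM2 are alpha-1-acid glycoproteins, which bind drugs and lipids. Haptoglobin (Hp) captures free haemoglobin and hemopexin (Hpx) captures free heme. Lipocalin-2 (Lcn2) binds bacterial siderophores and so withholds iron. Itih4 encodes a heavy chain of the inter-alpha-trypsin inhibitor family.

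The SAA genes form a cluster on chromosome 7 of mm10. In the GENCODE M21 annotation Saa3 lies at chr7:46711998-46715700, Saa4 at chr7:46727998-46732603 and Saa1 at chr7:46740497-46742980, all on the minus strand, and Saa2 lies at chr7:46751790-46754313 on the plus strand. Orm1 (chr4:63344560-63348163) and Orm2 (chr4:63362449-63365878) flank Orm3 (chr4:63356162-63359511), all on the plus strand. Hpx is at chr7:105591613-105600137, Hp at chr8:109575128-109579172 and Lcn2 at chr2:32384633-32388252, all on the minus strand, and Itih4 is at chr14:30886476-30902353 on the plus strand. No other annotated gene overlapped any of the 10. Reads of 75 bases could be shared between near-identical copies. The spliced main transcript of each gene, the longest that GENCODE marks as principal, was compared in 75-base windows with all transcripts of other genes. Identical windows made up 4.67% of Saa1 (with Saa2), 1.04% of Saa2 (with Saa1), 13.8% of Orm1 (with Orm2) and 14.0% of Orm2 (with Orm1 or Orm3). The split of reads among these genes is therefore less certain than the levels of Saa3, Saa4, Hp, Hpx, Lcn2 and Itih4, whose main transcripts shared no window with another gene. Windows in introns, or with a mismatch, were not counted.

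Promoters are shown for SAA genes that were and were not called, for Orm2 and for Lcn2. The RefSeq table for GRCm38.p6 held 8 of the 10 members, without Hp and Orm1. Each sequence runs from 250 bases before to 50 bases after the RefSeq start, 5′ to 3′ on the strand of the gene. Capitals mark matches to TTGCNNAA on either strand, letters of the C/EBP binding motif, and in Orm2 also TATAAA on the gene strand. Saa3 is at chr7:46715627-46715926 on the minus strand, Saa4 at chr7:46732554-46732853 on the minus strand, Saa1 at chr7:46742931-46743230 on the minus strand, Orm2 at chr4:63362199-63362498 on the plus strand and Lcn2 at chr2:32387690-32387989 on the minus strand.
Saa1: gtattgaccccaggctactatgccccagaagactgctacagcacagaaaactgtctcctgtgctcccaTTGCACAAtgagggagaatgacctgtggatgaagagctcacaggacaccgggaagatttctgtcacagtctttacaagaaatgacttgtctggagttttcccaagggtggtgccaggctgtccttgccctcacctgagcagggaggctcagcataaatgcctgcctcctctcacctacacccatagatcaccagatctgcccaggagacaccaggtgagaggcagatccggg
Saa3: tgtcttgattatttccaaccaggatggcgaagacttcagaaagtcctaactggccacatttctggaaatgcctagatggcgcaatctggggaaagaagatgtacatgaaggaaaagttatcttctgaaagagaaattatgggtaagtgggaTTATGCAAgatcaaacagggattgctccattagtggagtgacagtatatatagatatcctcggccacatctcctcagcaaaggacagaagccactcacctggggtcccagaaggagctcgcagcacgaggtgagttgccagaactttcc
Saa4: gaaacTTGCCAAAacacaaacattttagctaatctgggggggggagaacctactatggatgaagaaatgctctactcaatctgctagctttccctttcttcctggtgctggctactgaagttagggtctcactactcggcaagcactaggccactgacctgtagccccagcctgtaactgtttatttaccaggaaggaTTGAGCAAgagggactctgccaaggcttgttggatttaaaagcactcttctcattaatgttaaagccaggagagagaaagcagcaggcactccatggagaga
Orm2: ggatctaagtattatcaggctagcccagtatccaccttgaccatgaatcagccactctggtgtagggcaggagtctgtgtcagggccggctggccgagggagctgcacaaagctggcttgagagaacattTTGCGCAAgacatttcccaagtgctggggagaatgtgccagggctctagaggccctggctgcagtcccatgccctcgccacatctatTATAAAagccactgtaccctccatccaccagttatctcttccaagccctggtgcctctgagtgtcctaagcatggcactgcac
Lcn2: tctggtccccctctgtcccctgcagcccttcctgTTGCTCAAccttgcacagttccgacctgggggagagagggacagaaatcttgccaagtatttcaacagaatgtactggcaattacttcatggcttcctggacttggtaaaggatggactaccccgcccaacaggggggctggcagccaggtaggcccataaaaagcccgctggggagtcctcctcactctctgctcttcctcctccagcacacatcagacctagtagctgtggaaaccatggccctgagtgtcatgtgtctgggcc

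Of the 8 promoters, 7 held TTGCNNAA, against 10.8% of the 32851 promoters in the table. Saa4 held 2 matches, with their first bases 245 and 52 bases before the start. The match in Saa3 began 99 bases before the start, that in Orm2 120, that in Lcn2 216 and that in Saa1 182. Saa2 and Hpx, not printed, held a match 183 and 200 bases before the start. Itih4 held none, and was the only one of the 8 with TTCNNNGAA, letters of the STAT motif, which 8.30% of all promoters held. None of the 8 held CTGGGAA, letters of an interleukin-6 response element (11.1% of all promoters, both strands), or the NF-kB consensus (8.46%). TATAAA on the gene strand was found in Orm2 only, against 8.32% of all promoters. Of the members called in Atg7-KO, Saa3 and Saa4, which were lower, and Lcn2, which was higher, held the C/EBP letters, Itih4, which was lower, did not, and Orm1 was not in the table. These matches describe letters in a window and do not show binding.

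Library totals ran from 713835 to 15426566 counts. Every S351A library, at 792366 counts or fewer, was smaller than every other library, at 1875314 or more, so depth and the p62 mutation cannot be told apart. Levels are given as CPM, counts relative to the library total after scaling by edgeR's TMM factors, and 3 counts, taken as the floor, corresponded to between 0.269 and 3.73 CPM. Floors and the intervals named counting intervals cover counting error only; 95% intervals are those of the edgeR fit and include the spread between livers. Nothing in the labels says more of the replicates than a number each, so p-values measure the spread between these livers. Atg7 itself stood at 45.1, 57.7 and 42.4 CPM in cont., at 30.2, 28.0 and 28.4 in Atg7-KO and at 21.8, 24.8 and 22.2 in S351A. It was lower in both Cre groups (log2 fold change -0.74, adjusted p = 0.00758, and -1.07, adjusted p = 0.00319, edgeR), although a count over the whole gene does not separate the deleted part. With total library sizes in place of TMM factors the calls were lost in Atg7-KO (-0.203, adjusted p = 0.855) and in S351A (-0.588, adjusted p = 0.0639), and with the 20 most abundant genes left out of the library sizes the call was lost in Atg7-KO (-0.311, adjusted p = 0.208). Hepatocyte markers were present in every library, with a summed level of 54200 to 117000 CPM in cont., 35800 to 42900 in Atg7-KO and 34000 to 49200 in S351A.

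Together the 10 genes took 0.586%, 0.888% and 0.629% of all counts in cont. replicates 1 to 3, 0.927%, 0.874% and 0.949% in Atg7-KO, and 1.01%, 1.06% and 0.989% in S351A. The S351A shares lay above all the others, whereas those of cont. and Atg7-KO overlapped. These are shares of unscaled totals. On the TMM scale the members summed to 6990 to 11100 CPM in cont., 7850 to 8450 in Atg7-KO and 8710 to 9980 in S351A. There S351A overlapped cont. and lay above Atg7-KO. Hp and Hpx made up most of this share. Levels of different genes were compared per kilobase of the spliced main transcript. The order of mean levels in cont. was then Hp (2686 CPM per kb), Hpx (1851), Orm1 (1577), Itih4 (235), Saa4 (195), Orm2 (55.2), Saa3 (34.1), Saa1 (20.1), Saa2 (9.13) and Lcn2 (6.34). In this order the libraries of neighbouring genes overlapped except between Hp and Hpx, where they all but met, between Orm1 and Itih4, and between Saa4 and Orm2. In Atg7-KO, Lcn2 stood between Orm1 and Itih4, at 161 CPM per kb against 736 for Orm1 and 120.3 for Itih4, and its libraries overlapped those of neither neighbour. Saa3 then had the lowest mean of the 10, at 4.24 CPM per kb, with libraries that overlapped those of Saa2 (7.91). In S351A the means of Orm2 (162 CPM per kb), Itih4 (158) and Lcn2 (152) lay close together and their libraries overlapped. These values take each gene as spliced to its main transcript, since the count table does not separate transcripts.

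**Figure D1:**
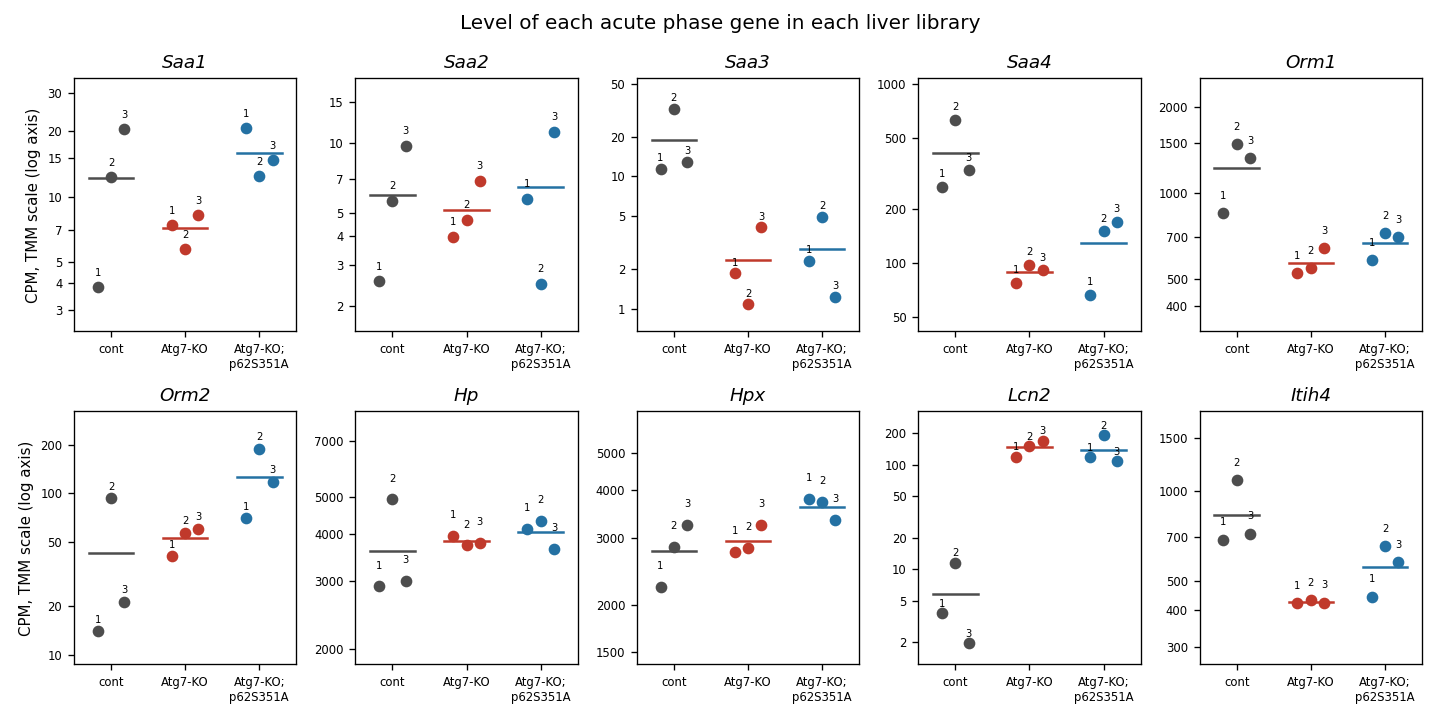
Level of the 10 acute phase genes in each of the 9 libraries, in CPM on the TMM scale with a log axis. Points are libraries, labelled by replicate number, and bars are group means (n = 3). Lcn2 lies between 1.97 and 11.6 CPM in cont. and between 109 and 191 in the 2 Cre groups; Saa3, Saa4 and Orm1 lie lower in both Cre groups than in every cont. library.

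Atg7-KO against cont. asks how the loss of Atg7 from hepatocytes bears on these genes. The test was edgeR's quasi-likelihood F test over 11199 genes, and a gene was called when its adjusted p was under 0.05 and its fold change above 1.5. Of the 10 acute phase genes, 1 was called higher (Lcn2), 4 were called lower (Saa3, Saa4, Orm1 and Itih4) and 5 were not called. Over all genes tested, 38.0% were called, 19.9% higher and 18.1% lower, so the share of the 10 called was close to the background. For 4 of the 10 every Atg7-KO library was below every cont. library (24.9% of all genes) and for 1 above (26.7%). The median log2 fold change of the 10 was -0.66, and that of all genes tested -0.03. The filter on low counts used library totals without TMM factors, with a level of 5.14 CPM on that scale, and kept all 10. Saa3 passed it through cont., where 3 libraries lay above that level, against 0 in Atg7-KO and 1 in S351A. On the TMM scale no S351A library exceeded 4.97 CPM. Lcn2 passed through the Cre groups. So did any tested gene of the lists below whose cont. libraries all lay under the filter level, and a rise was the likely call for such genes. With total library sizes the median over all genes moved up by 0.547, and the calls split into 4312 higher and 796 lower, against 2226 and 2027 on the TMM scale.

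In S351A against cont., 1 of the 10 was called higher (Lcn2) and 3 were called lower (Saa3, Saa4 and Orm1), against 28.6% of all genes called, 15.6% higher and 13.0% lower. At an unadjusted p under 0.05 there were 6 of the 10, against 41.0% of all genes. The median of the 10 was 0.05, beside -0.03 over all genes. Both comparisons use the same 3 cont. libraries and are not independent of each other. With total library sizes the calls over all genes were 3541 higher and 510 lower, against 1748 and 1460, and the median over all genes moved up by 0.496.

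**Figure D2:**
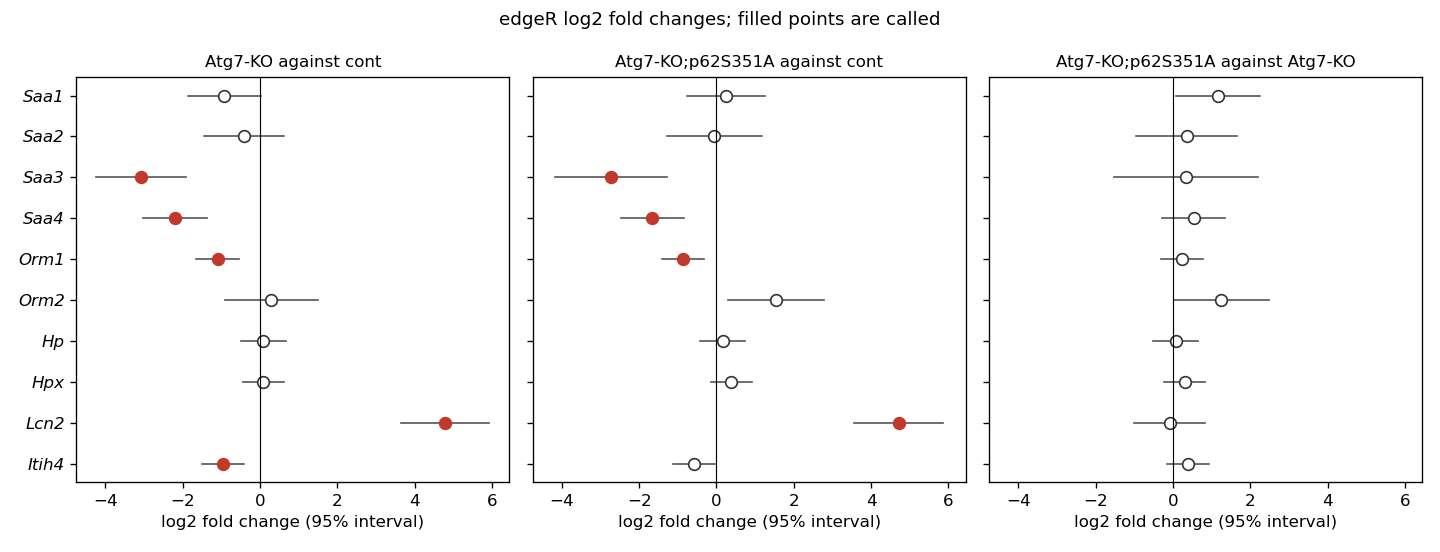
log2 fold change of each acute phase gene in the 3 comparisons, with 95% intervals from edgeR; filled points passed both thresholds. In the comparisons with cont. Lcn2 lies at 4.79 and 4.72 and Saa3 at -3.07 and -2.73, and no point is filled in S351A against Atg7-KO.

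Lcn2 showed the widest change of the 10. Its level was 3.81, 11.6 and 1.97 CPM in cont. replicates 1 to 3, 119.9, 151.8 and 170.2 in Atg7-KO, and 118, 191 and 109 in S351A. Every Cre library was thus above every cont. library, and the 2 Cre groups overlapped. The rise in Atg7-KO was 27.8-fold (log2 4.79, 95% interval 3.65 to 5.94, SE 0.525, adjusted p = 3.53e-05, edgeR), the 112th highest of the 11199 genes. In S351A it was 26.3-fold (log2 4.72, SE 0.53, adjusted p = 8.79e-05, edgeR). The cont. libraries held 61 Lcn2 counts in all against 1312 in Atg7-KO, a pooled ratio of 36.1 with a counting interval of 27.9 to 47.5. The size of the change varied with the cont. libraries used: without cont. replicate 2 the log2 values were 5.92 and 5.83, and without replicate 3 they were 4.13 and 4.04, all called. Between S351A and Atg7-KO the log2 difference was -0.08, with a 95% interval from -1.00 to 0.84.

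Lcn2 is also a granule protein of neutrophils and is made by macrophages and epithelia. Of 13 neutrophil markers in the table, only Csf3r, the receptor for granulocyte colony-stimulating factor, was high enough to be tested, and it was called higher in Atg7-KO (log2 1.41) and in S351A (1.24). Csf3r held 8 to 62 counts per cont. library and passed the filter only through the Cre groups. The summed level of the 13 was 8.78 to 12.1 CPM in cont., 20.4 to 32.0 in Atg7-KO and 17.3 to 26.1 in S351A. S100a8 lay at 4.67 CPM or lower and S100a9 at 4.58 or lower in every library, and Ly6g was not among the genes of the count table. Ltf, which encodes lactoferrin of the neutrophil granules, was at 0 in every library except Atg7-KO replicate 2, where it was at 0.359 CPM. Of 17 macrophage and Kupffer cell markers, 12 rose and 1 fell in Atg7-KO by the same thresholds (19.9% and 18.1% of all genes), with a summed level of 266 to 429 CPM in cont. and 564 to 706 in Atg7-KO. Some of these markers passed the filter through 1 side only, as given below beside Saa3. The general macrophage marker Adgre1 rose (log2 1.31), while the Kupffer cell marker Clec4f was at -0.16 and was not called. All 8 tested ductular markers were called higher in Atg7-KO, where 19.9% of all genes were, among them Spp1 (log2 4.37) and Krt19 (3.33). Spp1 and Sox9 stood at 14.1 CPM or more in every cont. library. Krt19, Krt7, Epcam, Cftr, Prom1 and Muc1 stood at 4.45 CPM or lower there and passed the filter only through the Cre groups. The direction of their change was therefore largely set by the filter. The summed level of the listed ductular markers was 51.8 to 91.5 CPM in cont., 863 to 1250 in Atg7-KO and 771 to 1230 in S351A. Of 10 stellate cell and fibroblast markers, 7 were called higher in each Cre group, against 19.9% of all genes in Atg7-KO and 15.6% in S351A, with a summed level of 297 to 598 CPM in cont., 1340 to 1810 in Atg7-KO and 1220 to 1750 in S351A. The part of these cell types in the Lcn2 level was not tested.

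Of the serum amyloid A genes, Saa3 and Saa4 were called lower in both comparisons with cont., and Saa1 and Saa2 were not called. Saa3 stood at 11.4, 32.4 and 12.9 CPM in cont., at 1.86, 1.08 and 4.12 in Atg7-KO, and at 2.30, 4.97 and 1.23 in S351A. No Cre library reached the lowest cont. library. Saa3 was 8.41-fold lower in Atg7-KO (log2 -3.07, SE 0.538, adjusted p = 0.000849, edgeR), the 94th lowest of 11199 genes, and 6.63-fold lower in S351A (log2 -2.73, SE 0.67, adjusted p = 0.00964, edgeR). The counts behind the Cre groups were few, 20 in Atg7-KO and 7 in S351A against 254 in cont., and the pooled ratios to cont. were 0.132 (counting interval 0.0794 to 0.208) and 0.173 (0.0687 to 0.361). The call in S351A was not made by limma-voom (log2 -2.47, adjusted p = 0.0558). Without cont. replicate 2 the edgeR values were -2.47 in Atg7-KO and -2.13 in S351A, both called, and without S351A replicate 2 the S351A value was -3.41, also called. Macrophages and adipocytes are known sources of Saa3. Of the 17 macrophage markers, 12 rose in Atg7-KO (19.9% of all genes), among them Gpnmb (log2 6.98), Trem2 (4.42), Itgax (4.14) and Cd68 (1.52). Gpnmb had 0 counts in every cont. library, so the size of its change is not measured. Trem2 and Itgax lay at 1.76 CPM or lower in cont. Gpnmb, Trem2 and Itgax passed the filter only through the Cre groups. Timd4 fell (-1.92) and passed through cont., with 3 to 10 counts per Atg7-KO library. Clec4f (-0.16), Cd5l (-0.24), Marco (-0.84) and Vsig4 (0.10) were not called. In S351A, 10 rose and none fell (15.6% and 13.0% of all genes). The 5 adipocyte markers summed to at most 5.09 CPM in any library. The part of these cells in the Saa3 level was not tested.

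Saa4 was the most abundant of the family. Its level was 267, 631 and 329 CPM in cont., 77.7, 98.0 and 91.1 in Atg7-KO, and 66.6, 150 and 170 in S351A. Cre and cont. libraries did not overlap. The gene was 4.61-fold lower in Atg7-KO (log2 -2.20, SE 0.377, adjusted p = 0.000733, edgeR) and 3.18-fold lower in S351A (log2 -1.67, SE 0.376, adjusted p = 0.00612, edgeR). Both calls were kept under all 23 alternatives.

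The inducible pair was low and did not pass the test. Saa1 was at 3.81, 12.3 and 20.6 CPM in cont., at 7.42, 5.74 and 8.24 in Atg7-KO, and at 20.7, 12.4 and 14.8 in S351A. The cont. libraries spanned 5.40-fold and overlapped both other groups, while every S351A library was above every Atg7-KO library. The log2 fold change was -0.92 in Atg7-KO (95% interval -1.86 to 0.02, adjusted p = 0.113, edgeR) and 0.25 in S351A (adjusted p = 0.732). Without cont. replicate 1, in which 6 counts of Saa1 were found, the Atg7-KO value was -1.27 and was called (adjusted p = 0.0091). Saa2 was at 2.54, 5.63 and 9.68 CPM in cont., at 3.94, 4.67 and 6.86 in Atg7-KO, and at 5.74, 2.48 and 11.1 in S351A. All 3 groups overlapped for Saa2, with log2 fold changes of -0.41 (adjusted p = 0.534) and -0.05 (adjusted p = 0.959). S351A libraries held 2 to 9 counts of Saa2.

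Of the orosomucoids, neighbours on chromosome 4, Orm1 was called lower in both comparisons with cont. and Orm2 was not called. Orm1 was at 852, 1484 and 1330 CPM in cont., at 523, 546 and 643 in Atg7-KO, and at 584, 724 and 701 in S351A. All Cre libraries were below all cont. libraries. Orm1 was 2.14-fold lower in Atg7-KO (log2 -1.10, SE 0.255, adjusted p = 0.00478, edgeR) and 1.83-fold lower in S351A (log2 -0.87, SE 0.255, adjusted p = 0.0231, edgeR). The S351A call was lost in 7 of 23 alternatives, among them without cont. replicate 2 (log2 -0.72, adjusted p = 0.064), without S351A replicate 1 (-0.79, adjusted p = 0.09) or replicate 2 (-0.95, adjusted p = 0.0554), and with total library sizes (-0.373, adjusted p = 0.251). With total library sizes the Atg7-KO call was lost too (-0.555, adjusted p = 0.0788).

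Orm2 was at 14.0, 93.0 and 21.4 CPM in cont., at 40.8, 56.7 and 60.4 in Atg7-KO, and at 70.1, 189 and 117 in S351A. Cont. replicate 2 was above every Atg7-KO library and above S351A replicate 1, whereas the other 2 cont. libraries were below every Cre library. The log2 fold change was 0.29 in Atg7-KO (95% interval -0.92 to 1.49, adjusted p = 0.719, edgeR) and 1.54 in S351A (0.31 to 2.78, adjusted p = 0.0598, edgeR), and neither was called. Without cont. replicate 2 both were called, at 1.48 (adjusted p = 0.00861) and 2.73 (adjusted p = 0.000496). The S351A value was called in 9 of 23 alternatives, DESeq2 (1.56, adjusted p = 0.0246) and limma-voom (1.83, adjusted p = 0.0305) among them. Orm3, the gene between them, was at 10.8, 46.1 and 5.20 CPM in cont., at 19.9, 40.2 and 29.7 in Atg7-KO and at 25.3, 54.6 and 49.4 in S351A, and was not called.

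The ratio of Orm2 to Orm1 counts within a library needs no scaling between libraries. It was 0.0166, 0.0627 and 0.0161 in cont., 0.0781, 0.104 and 0.094 in Atg7-KO, and 0.121, 0.261 and 0.168 in S351A. No library of one genotype overlapped another, and the order was cont., Atg7-KO, S351A. On the log2 scale the ratio averaged -5.29 ± 1.12 for cont., -3.45 ± 0.21 for Atg7-KO and -2.52 ± 0.554 for S351A (SD, n = 3). This ratio was chosen after the values had been seen, so it is given as a description with no test, and Orm1 and Orm2 share part of their reads. In every group the ratio was higher in the libraries with high Xist than in those with Y-linked expression, a split described further on that is not balanced between cont. and the Cre groups. The order of the 3 genotypes was the same among the former and among the latter. The part of sex in the ratio was not tested.

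**Figure D3:**
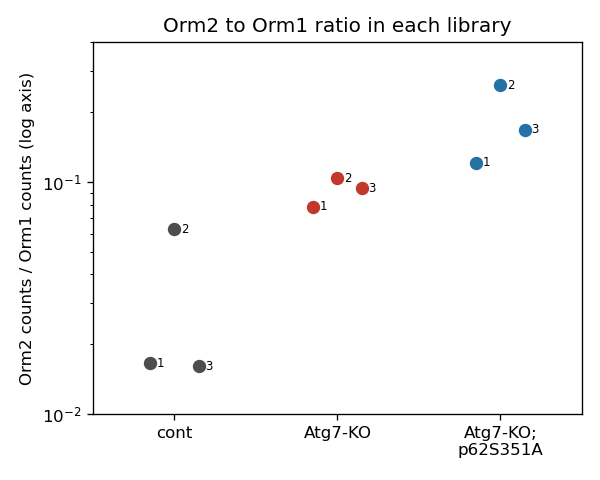
Ratio of Orm2 to Orm1 counts in each library on a log axis, by group; points are libraries, labelled by replicate number. The groups do not overlap, running from 0.0161 to 0.0627 in cont., from 0.0781 to 0.104 in Atg7-KO and from 0.121 to 0.261 in S351A.

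The scavengers of haemoglobin and heme had the highest mean levels of the 10, and neither was called in any comparison. Hp was at 2913, 4916 and 3009 CPM in cont., at 3947, 3730 and 3787 in Atg7-KO, and at 4113, 4326 and 3658 in S351A. Cont. replicate 2 was above every other library and the other 2 cont. libraries were below every other library. The log2 fold change was 0.08 in Atg7-KO (95% interval -0.50 to 0.66) and 0.16 in S351A (-0.42 to 0.74), and no alternative called it. Hpx was at 2232, 2846 and 3245 CPM in cont., at 2757, 2824 and 3253 in Atg7-KO, and at 3794, 3727 and 3349 in S351A. The S351A libraries were above all 6 others, with log2 fold changes of 0.38 against cont. (adjusted p = 0.26, edgeR) and 0.30 against Atg7-KO (adjusted p = 0.882, edgeR). Such a separation from cont. in the higher direction was found for 19.6% of all genes. With total library sizes Hpx was called higher in both Cre groups, at 0.631 (adjusted p = 0.0384) and 0.881 (adjusted p = 0.0109).

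Itih4 was at 687, 1085 and 718 CPM in cont., at 420, 431 and 423 in Atg7-KO, and at 442, 652 and 576 in S351A. The 3 groups overlapped nowhere: Atg7-KO was lowest, S351A next and cont. highest. Itih4 was 1.95-fold lower in Atg7-KO (log2 -0.97, SE 0.249, adjusted p = 0.00874, edgeR). In S351A its log2 fold change was -0.58 (95% interval -1.12 to -0.04, adjusted p = 0.101, edgeR) and was not called, although libraries that lie wholly below cont. were found for 18.4% of all genes in this comparison. The Atg7-KO call was lost with total library sizes (-0.434, adjusted p = 0.173) and with the 20 most abundant genes left out of the library sizes (-0.54, adjusted p = 0.0928). The Atg7-KO libraries lay closely together, with a coefficient of variation of 1.34% against 26.7% in cont.

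S351A against Atg7-KO addresses what weaker KEAP1 binding by p62 changes in livers without autophagy. None of the 10 was called by edgeR, nor in any of the alternatives, DESeq2 and limma-voom included; over all genes edgeR called 1 of 11199 (0.00893%), and DESeq2 called 21 higher and 18 lower. At an unadjusted p under 0.05 there were 2 of the 10, against 6.60% of all genes. These were Saa1 (log2 1.17, 95% interval 0.08 to 2.25, adjusted p = 0.742, edgeR) and Orm2 (log2 1.25, 0.03 to 2.48, adjusted p = 0.755, edgeR). The fitted value was positive for 9 of the 10 and negative for Lcn2, with a median of 0.35 beside 0.01 over all genes. For 4 of the 10 (Saa1, Orm2, Hpx and Itih4) every S351A library was above every Atg7-KO library, against 7.67% of all genes, and for none was every one below (9.23%). Of the other members, the 95% interval ran from -0.51 to 0.66 for Hp, from -0.32 to 0.78 for Orm1, from -0.23 to 0.83 for Hpx, from -0.15 to 0.93 for Itih4, from -0.27 to 1.34 for Saa4, from -0.95 to 1.66 for Saa2 and from -1.52 to 2.21 for Saa3.

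The libraries of a group also differed among themselves across several members at once. Cont. replicate 2 was the highest cont. library for 7 of the 10 genes and replicate 1 the lowest for 9. In Atg7-KO, replicate 3 was highest for 7 and replicate 1 lowest for 7. The labels do not give the sex of the mice. Xist, which is expressed from the inactive X chromosome of females, was at 970 to 1690 CPM in 5 libraries, in which Y-linked genes summed to at most 0.359 CPM. In the other 4, Xist was at most at 21.8 CPM and Y-linked genes summed to 206 to 372 CPM. By this reading cont. held 1 female and 2 males, and each Cre group held 2 females and 1 male, so sex was not balanced between cont. and the Cre groups. For 4 of the 10 genes, Saa4, Orm1, Orm2 and Itih4, every female library was above every male library in each of the 3 groups, and for none was the reverse true; over all genes the shares were 5.96% and 4.69%. This comparison was added after the values had been seen.

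In a fit with group and sex as terms, the female level of Orm2 was 2.51-fold the male level (log2 1.33, 95% interval 0.69 to 1.96, adjusted p = 0.109, edgeR), with the same order in all 3 groups. For Saa4 the female level was 1.80-fold the male level (log2 0.85, SE 0.213, adjusted p = 0.169, edgeR). None of the 10 passed the adjusted threshold for sex, where 0.205% of all genes were called higher and 0.143% lower in females. With sex in the fit, Orm2 in S351A against cont. was called (log2 1.34, adjusted p = 0.0143, edgeR), and so was Itih4 (log2 -0.69, adjusted p = 0.0387, edgeR). The calls for Lcn2, Saa3, Saa4 and Orm1 in both comparisons and for Itih4 in Atg7-KO were kept in that fit. All females and males within a group also differ in replicate number, and other differences between these mice cannot be told apart from sex.

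**Figure D4:**
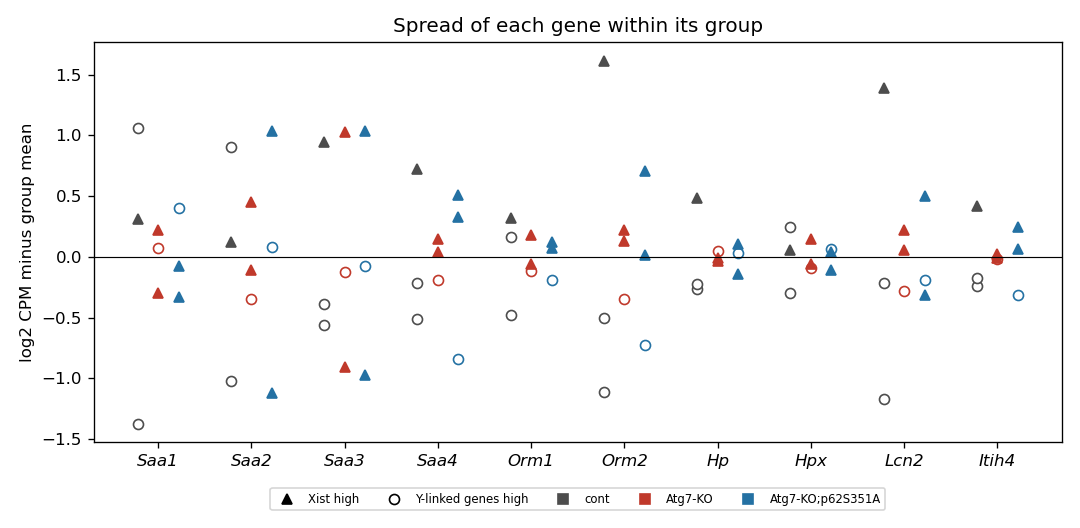
Spread of the 10 genes within their groups, as log2 CPM minus the mean of the group; triangles are the 5 libraries with high Xist and open circles the 4 with high Y-linked genes, coloured by group. For Saa4, Orm1, Orm2 and Itih4 the triangles of a group lie above its circles in all 3 groups.

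Other positive acute phase genes, from a fixed list of 23, are given here beside the same background. Of 21 tested in Atg7-KO, 2 were called higher and 7 lower, with a median log2 fold change of -0.64, where 19.9% and 18.1% of all genes were called. The higher pair was Cd14, the co-receptor for lipopolysaccharide (log2 4.18), and Il1rn, the interleukin-1 receptor antagonist (3.19). Both passed the filter only through the Cre groups, with 6 to 16 counts of Cd14 and 2 to 9 of Il1rn per cont. library. The largest decreases included Hamp (-1.86), which encodes the iron regulator hepcidin, the fibrinogen chain gene Fgg (-1.69), Itih3 (-1.53) and Crp, C-reactive protein (-1.33). Hamp2 had a log2 fold change of -6.08, but it stood at 102, 3096 and 86.8 CPM in cont., so that replicate 2 set most of the cont. mean. In S351A against cont. 4 were called higher and 6 lower (15.6% and 13.0% of all genes), and Cp, ceruloplasmin (0.82), and Serpina3n (0.92) were called higher beside Cd14 and Il1rn. Crp was not called there (-0.68, adjusted p = 0.0954), nor was Apcs, serum amyloid P, in either comparison (-0.68 and -0.49).

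Negative acute phase genes were called lower in 8 of 11 cases in Atg7-KO and in 7 of 11 in S351A, with none called higher and medians of -1.16 and -1.03, where 18.1% and 13.0% of all genes were called lower. Apolipoprotein genes Apoa2 (-3.08 in Atg7-KO) and Apoa1 (-1.22), the transthyretin gene Ttr (-1.49) and Alb (-1.17) were among them. Of 12 general hepatocyte markers, several of which are also negative acute phase genes, 10 were called lower in Atg7-KO and 9 in S351A. The 2 not called in Atg7-KO, Apob and Hnf4a, had higher means there (2874 and 723.5 CPM) than in cont. (2473 and 556.1 CPM). In Atg7-KO, Saa3, Saa4, Orm1 and Itih4 thus fell beside most hepatocyte markers, and the part of hepatocyte content in their levels was not tested.

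Of the inducing cytokines and their receptors, 12 of 17 were tested, and 3 were called in each direction in Atg7-KO (19.9% and 18.1% of all genes). Tnf (log2 2.57), the oncostatin M receptor Osmr (1.85) and the interleukin-22 receptor Il22ra1 (1.20) were called higher in Atg7-KO. Tnf passed the filter only through the Cre groups, with 1 to 6 counts per cont. library, 6 to 16 in Atg7-KO and 4 to 6 in S351A. The receptor Lifr (-2.61), the interleukin-1 co-receptor Il1rap (-2.52) and Il1r1 (-1.12) were called lower. In S351A the same genes were called except Il1r1 (-0.70, adjusted p = 0.245). The interleukin-6 receptor genes were not called, with log2 fold changes in Atg7-KO of 0.30 for Il6ra and 0.36 for Il6st. Il6 itself was at 0 in 7 of 9 libraries and was not tested.

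Among 20 tested genes of signalling and transcription, 2 were called higher and 2 lower in each comparison with cont., where 38.0% (Atg7-KO) and 28.6% (S351A) of all genes were called in either direction. The NF-kB subunits Relb (log2 3.00 in Atg7-KO and 2.72 in S351A) and Nfkb2 (1.51 and 1.37) rose. Relb held 5 to 34 counts per cont. library and passed the filter only through the Cre groups. Creb3l3, a membrane-bound transcription factor of acute phase genes (-1.21 and -1.07), and Foxa2 (-0.98 and -0.85) fell. Stat3 was not called in Atg7-KO (0.46, adjusted p = 0.103), nor were Socs3, a feedback inhibitor of STAT3 signalling (-0.14, adjusted p = 0.776), and Cebpb (-0.40, adjusted p = 0.41).

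Of 10 tested partners and receptors of the acute phase proteins, 3 rose and 5 fell in Atg7-KO, and 3 rose and 3 fell in S351A, beside 19.9% and 18.1% of all genes in the first comparison and 15.6% and 13.0% in the other. Cd163, the receptor for haptoglobin bound to haemoglobin, was at 13.4, 16.9 and 16.0 CPM in cont., 0.696, 1.79 and 1.37 in Atg7-KO, and 0, 0 and 4.94 in S351A. It fell in both comparisons (log2 -3.64 and -3.24), while its ligand gene Hp was not called. Like Saa3, Cd163 passed the filter through cont. It held 3 to 5 counts per Atg7-KO library and 0 to 4 per S351A library, so the size of the fall is uncertain. Lrp1, the receptor for hemopexin bound to heme, fell as well (-1.38 and -1.11), and Hmox1, which breaks heme down, was not called (0.59 and 1.09). Slc22a17, a receptor for lipocalin-2, rose beside Lcn2 (1.30 and 1.84), as did Tlr2, a receptor reported for serum amyloid A (3.23 and 2.68). Both passed the filter only through the Cre groups. Slc22a17 held 5 to 35 counts per cont. library, 11 to 43 in Atg7-KO and 4 to 14 in S351A. Tlr2 held 1 to 20 counts per cont. library. Ambp and Itih1, light and heavy chain genes of the inhibitor family of Itih4, fell in Atg7-KO (-1.32 and -0.95), and Itih1 was not called in S351A (-0.54, adjusted p = 0.112). Of the other heavy chain genes, Itih5 rose in Atg7-KO (1.45, adjusted p = 0.0068) and in S351A (1.38), and Itih2 was not called (-0.43 and -0.30). In S351A against Atg7-KO no gene of these 5 lists was called by edgeR.

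**Figure D5:**
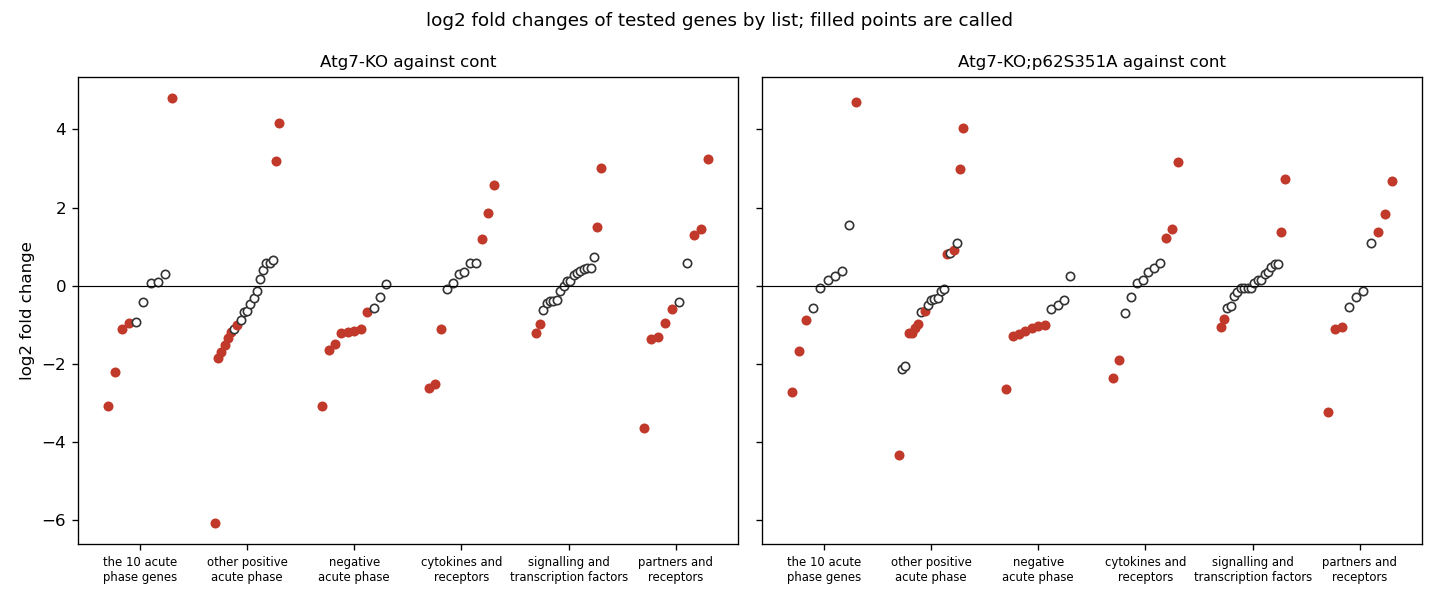
log2 fold change of each tested gene in the 2 comparisons with cont., by list and sorted within it; filled points passed both thresholds. The negative acute phase genes hold filled points below 0 only, while the other lists hold filled points on both sides.

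The genes whose pattern over the 9 libraries was most like that of a member were found by the root mean square difference of centred log2 CPM among 8807 genes. For Lcn2 these were Ifi44 (0.382), Ifit1 (0.454) and Ccl2 (0.482), for Saa3 Tmem256 (0.50), Atg101 (0.581) and Serpina1d (0.584), and for Saa4 Asl (0.111), Notum (0.159) and Hpd (0.20). Apoa1 was the second closest to Orm1 (0.122), after Atl2 (0.114) and before Minos1 (0.127). Orm3 was the closest to Orm2 (0.495), followed by Abcd2 (0.559) and Plekhf1 (0.575), and Kng2, a kininogen gene, was the closest to Itih4 (0.107). For comparison, the median difference over all genes was 2.37 for Lcn2, 1.04 for Saa4, 1.17 for Orm2 and 0.557 for Itih4. With a prior count of 0.5 in place of 2, Ifit1 and Ccl2 were no longer among the 3 nearest to Lcn2, nor Abcd2 among those nearest to Orm2. Hp was closest to Snrpb (0.101) and Hpx to Nek4 (0.103), both with little change. These distances are a description over libraries that share their groups and depth.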

How the data were processed

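Poly(A) RNA was sequenced as 75-base single-end reads on a NextSeq 500. Per the labels and the study's methods, the authors trimmed reads with Trim Galore, mapped them to mm10 with STAR and deposited RSEM expected counts, unscaled; versions, annotation and strand setting are not given in the sources used here. Sources also differ on the RNA extraction reagent. Between 4.4% and 7.75% of a library's values were not whole, and all were rounded. Reads shared by near-identical genes are divided by an estimate in such counts.

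Libraries were grouped by title. In R 4.3.3, edgeR 4.0.16 (filterByExpr at its default minimum count, 10, and total, 15, with TMM, 1 quasi-likelihood fit to all 9 libraries) compared the 3 pairs of groups, with Benjamini-Hochberg adjustment over 11199 genes. SE is the log2 fold change divided by the root of F. The procedure was tested on simulated data. Totals of 713835 to 15426566 counts set the precision.

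The members and lists were chosen with earlier results of these data known. All 10 members were named, Atg7, up to 5 called genes per list, direction and comparison, fixed markers, and 3 genes of nearest pattern, for which log2 CPM had a prior count of 2 and genes needed a mean of 10 CPM. Ltf, Hmox1, Il6, Itih2, Cd5l, Marco, Vsig4 and Cd68 were added after their values had been seen. Alternatives were other scalings and filters, DESeq2 1.42.0, limma-voom (limma 3.58.1), the compared libraries alone, replicate number or sex as a covariate, thinning, summed paralogs and leaving out each library.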

Additional observations from a re-analysis of the deposited data

How the results depend on the processing

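Lcn2 kept its calls in both comparisons with cont. under the 22 alternatives that gave it a value (log2 4.13 to 5.92 in Atg7-KO and 4.04 to 5.83 in S351A), Saa4 under all 23, and Saa3 in Atg7-KO under all 21 that tested it. Saa1, Saa2, Saa3 and Lcn2 could not be tested when at least 10 counts were required in every library. Saa3 also dropped out of the test with thinning to the smallest library, so its calls were not checked at equal depth. The number of the 10 called higher in Atg7-KO against cont., 1 in the report, was 2 with total library sizes, 0 with at least 10 counts in every library, and 1 to 2 when libraries were left out in turn (2 without cont. replicate 2). The number called lower, 4, was 2 with total library sizes, 3 without the 20 top genes in the library sizes, with at least 10 counts in every library and with thinning, 5 without cont. replicate 1 or when low genes were kept, and 4 otherwise. In S351A against cont. the number called higher, 1, was 3 with total library sizes and with library sizes without the 20 top genes, 2 with no filter, DESeq2, limma-voom, sex as a covariate and thinning to the smallest library, 0 with at least 10 counts in every library, and 1 to 2 when libraries were left out in turn (2 without cont. replicate 2). It was also 2 with a replicate block. The number called lower there, 3, was 4 with sex as a covariate, 2 in 10 alternatives and 3 otherwise. Replicate numbers are not said to pair the mice, and libraries of the same number correlated with r of -0.0415 to 0.306 over 9 pairs, against -0.265 to 0.212 over 18 pairs of other numbers. With Orm1, Orm2 and Orm3 counts summed, the log2 fold change that stands for Orm2 in Atg7-KO turned to -0.977 (adjusted p = 0.0128), a sum in which Orm1 counts dominate. The mean share of all counts taken by the 10 was 0.701% in cont., 0.916% for Atg7-KO and 1.02% for S351A. With the 20 top genes left out of both sums, which removes Hp from the 10, the other 9 took 0.528%, 0.568% and 0.686%, so these are shares of a different set. Depth limits Saa1, Saa2 and Saa3 in S351A, with 1 to 18 counts per library.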
